A study of Mus musculus with 4 samples.

Results

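The megakaryocyte and platelet genes Vwf, Pf4, Itga2b, Gp1bb, Gp9, Ppbp, Cd9, Itgb3 and Fermt3, 9 of the 31053 genes counted, were followed in mouse bone marrow by single-cell RNA sequencing. They were taken by gene symbol and chosen by their measured values: the summed levels, shares of cells and joint detection with Hlf or Mecom in these same libraries, with Vwf already known to differ within stem-like cells. The levels below are therefore a description and carry no test. There were 4 libraries, 1 for each group. KLS cells (lineage-negative, c-Kit-positive, Sca-1-positive, the fraction that holds blood stem and progenitor cells) came from 4 mice aged 8 to 12 weeks, of genotype Vav1-Cre/+STAT5ab+/+ (KLS control) or Vav1-Cre/+STAT5abfl/fl (KLS STAT5 KO). Stromal cells, called MSC in the labels and sorted as CD45-negative, Sca-1-positive and CD140a-positive, came from mice of the same genotypes aged 6 to 8 weeks. Every group therefore carried Vav1-Cre, a recombinase driven in blood cells, and the groups differed in the floxed Stat5a and Stat5b genes. Cells of several mice share a library, so there is no replicate of a genotype. All intervals given are 95% intervals that cover counting error only.

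Megakaryocytes are the large marrow cells that release platelets. Vwf encodes von Willebrand factor, which megakaryocytes and endothelial cells store and release and which tethers platelets to a vessel wall. The receptor for it on platelets, glycoprotein Ib-IX-V, contains the products of Gp1bb and Gp9, while Itga2b and Itgb3 encode the αIIb and β3 chains of the fibrinogen receptor and Fermt3 encodes kindlin-3, which activates it from inside the cell. Pf4 and Ppbp encode chemokines of the platelet α-granule, and Cd9 encodes a tetraspanin of the platelet membrane that many other cells carry. Some blood stem cells transcribe Vwf and other platelet genes, and such cells are known for a bias toward platelet production. Hlf, Mecom and Procr mark stem cells in the KLS fraction. STAT5A and STAT5B are transcription factors that act downstream of cytokine receptors.

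The 9 genes lie on 5 chromosomes (GENCODE M21, GRCm38). Vwf (ENSMUSG00000001930) spans chr6:125546774-125686679 on the plus strand, with no annotated gene overlapping it, and begins 51.98 kb from Cd9 (chr6:125460266-125494791, minus strand). Gp9 (chr6:87778072-87779768) is also on chromosome 6. Pf4 (chr5:90772435-90773383) and Ppbp (chr5:90768518-90770063) are neighbours 2.37 kb apart. Itga2b (chr11:102453297-102470122) and Itgb3 (chr11:104608000-104670476) share chromosome 11 with the floxed Stat5a and Stat5b, at 1.57 Mb and 3.72 Mb from them, and the part of that linkage in their levels was not tested. Gp1bb (chr16:18620317-18622403) overlaps Sept5 and another model on the same strand, so part of its counts is uncertain. Fermt3 (chr19:6998958-7019469) overlaps Trpt1, and Cd9 overlaps 2 non-coding models, on the opposite strand.

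Promoters were available for 7 of the 9 genes (RefSeq, GRCm38.p6), without Vwf and Itgb3. The 250 bases upstream of the start are printed for 4: Pf4 and Itga2b, whose levels were higher in stem-marker cells of the knockout library, and Gp9 and Gp1bb, the receptor genes whose intervals included no difference there. They lie at chr5:90772185-90772434 (plus strand), chr11:102469884-102470133 (minus strand), chr6:87777820-87778069 (plus strand) and chr16:18622404-18622653 (minus strand). The starts are those of RefSeq. For Itga2b that start lies inside the GENCODE gene, which reaches to chr11:102470122. Most of its printed bases, the match included, are therefore within that gene model. Capitals mark matches, on either strand, to the ETS motif GGAAGT or the GATA motif (AGATAA as well as AGATAG, together with TGATAA as well as TGATAG), the recognition letters of 2 transcription factor families active in megakaryocytes.
Pf4 promoter: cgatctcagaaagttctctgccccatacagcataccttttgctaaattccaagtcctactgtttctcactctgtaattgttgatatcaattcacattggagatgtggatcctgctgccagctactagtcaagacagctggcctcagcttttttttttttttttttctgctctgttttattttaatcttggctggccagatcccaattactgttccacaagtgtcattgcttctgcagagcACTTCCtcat
Itga2b promoter: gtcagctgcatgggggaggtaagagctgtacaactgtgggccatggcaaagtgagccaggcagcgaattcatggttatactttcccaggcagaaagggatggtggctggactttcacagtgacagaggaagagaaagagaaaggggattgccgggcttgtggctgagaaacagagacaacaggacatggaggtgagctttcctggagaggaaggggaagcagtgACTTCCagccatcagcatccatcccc
Gp9 promoter: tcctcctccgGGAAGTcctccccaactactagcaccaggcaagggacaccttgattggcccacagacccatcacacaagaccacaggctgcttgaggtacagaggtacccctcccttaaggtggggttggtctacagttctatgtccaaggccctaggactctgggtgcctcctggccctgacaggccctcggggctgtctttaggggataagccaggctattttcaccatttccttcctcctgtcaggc
Gp1bb promoter: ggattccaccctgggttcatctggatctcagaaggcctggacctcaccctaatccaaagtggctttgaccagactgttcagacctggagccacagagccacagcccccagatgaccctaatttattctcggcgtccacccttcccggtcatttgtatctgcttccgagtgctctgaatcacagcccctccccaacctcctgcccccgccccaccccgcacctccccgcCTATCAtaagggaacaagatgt
The ETS letters were found in 4 of the 7 promoters (Pf4, Itga2b, Gp9 and Ppbp) and in 19.7% of all 32851 promoters of this length. In Pf4 and Itga2b the match begins 10 and 26 bases before the RefSeq start, and in Gp9 it begins 240 bases before it. The Itga2b match is inside the GENCODE gene. The GATA letters were found in 1 of the 7, Gp1bb, and in 26.5% of all. The STAT letters TTCNNNGAA were found in 0 of the 7 and in 7.02% of all. These are matches of letters and not binding sites.

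After filtering, 3454 KLS control cells and 6987 KLS STAT5 KO cells were kept, with medians of 13529 and 9805 UMIs (unique molecular identifiers, 1 per captured RNA molecule). The median mitochondrial share was 4.37% in control and 2.90% in STAT5 KO, and a stricter cell filter (1000 or more genes, no more than 5% mitochondrial) kept 2474 and 6521 of them. Under it the Vwf log2 ratio was 2.07 in stem-marker cells and 3.35 in triad cells (both sets are defined with their results), against 1.75 and 2.76; the part of RNA quality in the results was not tested. Stat5a was 68.4 CPM (the counts-per-million scale, UMIs of a gene relative to all UMIs of the cells) in control and 6.86 CPM in STAT5 KO, 10.0% of control. Stat5b was 60.8 and 4.70 CPM, 7.73% of control. Of the kept cells, 369 in control and 261 in STAT5 KO carried a barcode that held more UMIs in another library. They supplied 0.696% and 0.321% of the UMIs. Leaving them out gave log2 ratios of 1.21 for Vwf, 0.62 for Pf4 and 0.58 for Itgb3 over all KLS cells, against 1.21, 0.62 and 0.57 with them.

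In all kept KLS cells, Vwf, Pf4 and Itgb3 were higher in the STAT5 KO library and the other 6 genes were close to control or lower. Vwf was 7.53 CPM (388 UMIs) in control and 17.5 CPM (1339 UMIs) in STAT5 KO, a fold of 2.32 (2.07 to 2.60). Pf4 was 54.2 and 83.5 CPM, a fold of 1.54 (1.47 to 1.61). Itgb3 was 6.06 and 8.99 CPM, a fold of 1.48 (1.30 to 1.70). The intervals of both libraries stood apart for these 3 genes. Of the 8 members with at least 100 UMIs, summed over both libraries, 2 were at least 1.5-fold higher in STAT5 KO (log2 ratio with 1 CPM added). These were Vwf and Pf4. Of all 12272 genes, 1.03% were. None of the 8 was at least 1.5-fold lower, where 3.39% of genes were. With a fixed size rule and no replicates, these counts describe 2 libraries. The Vwf call rests on few cells: without the 4.99% of deep STAT5 KO cells that had a Stat5a or Stat5b UMI its fold was 1.43, under the 1.5-fold line, while Pf4 stayed above it at 1.58.

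The partners in the same receptor complexes did not share one pattern. Itga2b was 39.9 CPM in control against 41.1 CPM in STAT5 KO, a log2 ratio of 0.04 (-0.04 to 0.12), beside the higher Itgb3. Gp9 was 13.3 and 11.6 CPM, a log2 ratio of -0.20 (-0.35 to -0.06). Gp1bb, with 79 and 96 UMIs, gave a log2 ratio of -0.29 (-0.74 to 0.16), a difference not detectable at this depth. Ppbp, the granule chemokine gene next to Pf4, had only 97 UMIs over both libraries. It was 0.971 CPM (50 UMIs) in control and 0.613 CPM (47 UMIs) in STAT5 KO, a log2 ratio of -0.66 (-1.27 to -0.06). Without the barcodes larger elsewhere it was -0.48. Fermt3 was 171 and 163 CPM. Cd9 was 87.1 and 82.1 CPM, a log2 ratio of -0.08 that came to -0.01 without those barcodes and to -0.76 as the mean over single cells. In the same cells 7 of 8 stromal markers were at least 1.5-fold lower, where 3.39% of all genes were. Stromal markers summed to 248 CPM in control against 113 in the knockout, and mast and basophil markers to 78.4 and 110.0 CPM. Their part in the Cd9 values was not tested. The median log2 ratio of the 9 genes was -0.07, beside -0.01 over all genes.

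In the stromal libraries Cd9 was 1379 CPM in MSC control and 1460 CPM in MSC STAT5 KO. The other 8 genes were scarce there. Vwf had 5 UMIs over 609 MSC control cells and 0 over 384 MSC STAT5 KO cells, and 3 UMIs in the latter would be 2.47 CPM. Itgb3 had 34 and 8 UMIs and Itga2b 22 and 7. Each of Pf4, Gp1bb, Gp9, Ppbp and Fermt3 had at most 4 UMIs in either library. Their direction between the stromal libraries is not read from so few UMIs.

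Stem-marker cells were then set apart: cells with at least 1 UMI of Hlf or Mecom after every cell was thinned at random to 1500 UMIs, so that depth did not decide membership. They were 1136 of 3110 control cells (36.5%) and 1939 of 6739 STAT5 KO cells (28.8%), with medians of 11668 and 8472 UMIs before thinning. Thinning evens depth but not the levels of the marker genes. Over all kept KLS cells the knockout library had 0.629 of the control level of Hlf and 0.881 of that of Mecom. The part of these levels in set membership was not tested. Among stem-marker cells, Vwf was 8.27 CPM for control and 27.8 CPM for STAT5 KO, a fold of 3.37 (2.79 to 4.09). Pf4 was 28.2 and 84.1 CPM, a fold of 2.98 (2.69 to 3.31). Itgb3 was 5.85 and 12.1 CPM, a fold of 2.07 (1.62 to 2.64). Itga2b was 32.6 and 44.1 CPM, a fold of 1.35 (1.21 to 1.51). In cells without Hlf or Mecom the folds were 1.93 for Vwf, 1.25 for Pf4, 1.30 for Itgb3 and 0.920 for Itga2b, each lower than among stem-marker cells. For Pf4 the direction there depended on depth: with cells thinned to 5900 UMIs the fold in cells without Hlf or Mecom was 0.837, against 2.57 in stem-marker cells.

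Gp9 (13.9 and 13.5 CPM), Cd9 (96.5 and 97.3 CPM) and Fermt3 (179 and 172 CPM) gave log2 intervals in stem-marker cells that included 0, the widest, for Gp9, from -0.30 to 0.22. Gp1bb (11 and 23 UMIs) and Ppbp (18 and 11 UMIs) were too scarce to set a direction. Of 7 members with at least 100 UMIs, 3 were at least 1.5-fold higher in STAT5 KO, where 1.47% of 10728 genes were, and 0 were lower, where 2.64% were. Of the 3, Itgb3 (97 and 236 UMIs) passed the 100 UMIs only with the STAT5 KO cells. The median of the 9 log2 ratios was 0.39, beside 0.01 over all genes.

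**Figure D1:**
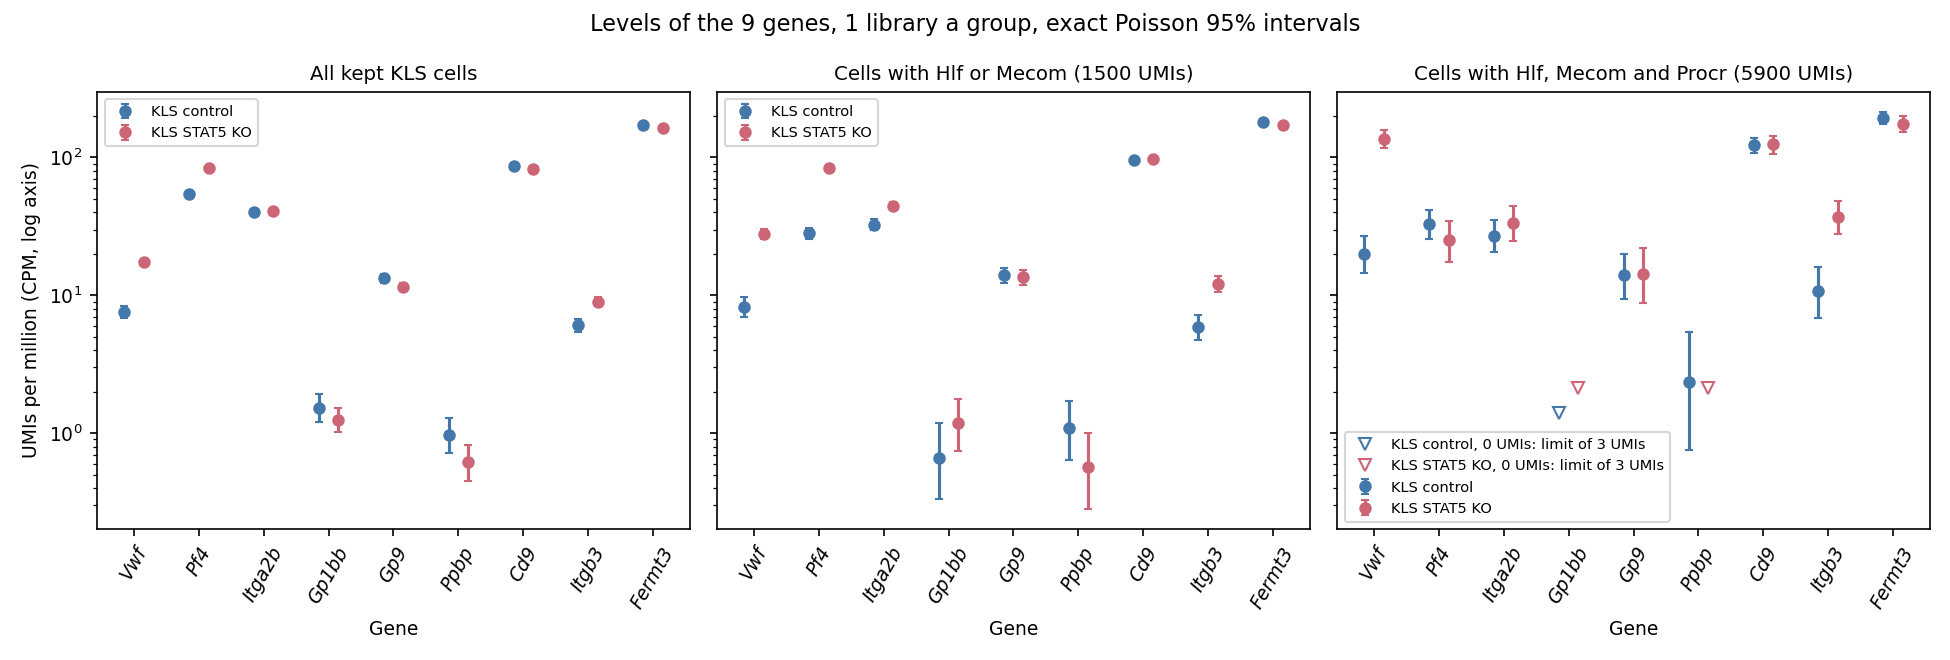
Levels of the 9 genes in the KLS control and KLS STAT5 KO libraries, in CPM on a log axis, in all kept cells, in cells with Hlf or Mecom and in cells with Hlf, Mecom and Procr; points are 1 library each and bars are exact Poisson 95% intervals. Vwf stands at 7.53 and 17.5 CPM in all cells and at 20.1 and 136.3 CPM in cells with all 3 markers, while Cd9 and Fermt3 lie together in every panel.

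The share of cells with a Vwf UMI followed the summed level. After thinning to 1500 UMIs, 18 of 1136 control stem-marker cells (1.58%, 0.942 to 2.49%) had one, as did 73 of 1939 STAT5 KO cells (3.76%, 2.96 to 4.71%). At 5900 UMIs a cell, the 25th percentile of depth in place of the 10th, the shares were 3.74% of 2087 and 7.51% of 3103 cells. Unthinned over all kept cells, the shares were 5.76% and 6.77%. For Pf4 the share and the level disagreed: at 5900 UMIs 9.44% of control and 7.90% of STAT5 KO stem-marker cells had a Pf4 UMI, while the level was 39.7 and 101.9 CPM. The Pf4 UMIs were held by few cells, with 37.8% of the control and 30.2% of the STAT5 KO Pf4 UMIs in cells of this depth lying in 5 cells, against 16.1% and 6.34% for Vwf. No order is read from the Pf4 share.

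As a background for these shares, cells with 2 or more UMIs of Dntt, a gene of lymphoid progenitors, were used at 5900 UMIs. A Vwf UMI was present in 4 of 825 control (0.485%) and 13 of 1782 STAT5 KO (0.730%) Dntt cells, with medians of 16283 and 12012.5 UMIs. Itgb3 was detected in 1.09% and 1.46% of them, Pf4 in 1.82% and 1.57%. In both libraries the shares of Vwf in stem-marker cells lay above these values.

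Cells with Hlf, Mecom and Procr all detected at 5900 UMIs, called triad cells here, are the narrowest stem-like set, chosen at this depth after the data were seen because only 18 control and 15 STAT5 KO cells qualified at 1500 UMIs. There were 182 in control (6.08% of cells) and 138 in STAT5 KO (2.61%), with close medians of 8478 and 8864.5 UMIs. Procr, like Hlf, was lower over all kept cells of the knockout library, with a fold of 0.618. Within triad cells the folds were 0.723 for Hlf, 1.04 for Mecom and 0.955 for Procr. Whether the knockout and control sets hold like cells was not tested. Vwf was 20.1 CPM (14.5 to 27.1) in control triad cells and 136.3 CPM (118 to 157) in STAT5 KO triad cells, a fold of 6.79 (4.85 to 9.68). A Vwf UMI was present in 20 of 182 cells (interval 6.84 to 16.5%) in control, and in 52 of 138 (37.7%, 29.6 to 46.3%) in the knockout. Stat5a was 73.8 and 28.6 CPM in these cells and Stat5b 62.6 and 20.7 CPM, so 38.7% and 33.1% of the control level remained, more than over all KLS cells. Among 5652 genes with at least 100 UMIs in these cells, the Vwf ratio stood in place 2 from the highest. Vwf was chosen with its difference in stem-like cells known, and it passed the 100 UMIs only with the STAT5 KO set (43 and 191 UMIs). Its place is therefore a description and no support.

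Itgb3 was the other member that differed in triad cells. It was 10.7 CPM (23 UMIs) in control and 37.1 CPM (52 UMIs) in STAT5 KO, a fold of 3.45 (2.08 to 5.91), and was detected in 7.69% and 19.6% of the cells. The partner chain gene Itga2b was 27.1 and 33.5 CPM, with a log2 interval of -0.28 to 0.89. Pf4 had 70 and 35 UMIs, a log2 ratio of -0.39 (-1.02 to 0.22), so the Pf4 excess of the wider stem-marker set was not seen here. Gp9 (30 and 20 UMIs), Cd9 (122.9 and 124.2 CPM) and Fermt3 (194 and 175 CPM) also gave intervals that included 0. Gp1bb had 0 UMIs in both sets, and Ppbp had 5 in control and 0 in STAT5 KO. Of 5 members with at least 100 UMIs, 1 was at least 1.5-fold higher, where 2.37% of genes were, and 0 were lower, where 3.38% were. The 1 was Vwf, chosen with this difference known, so the count is only a description.

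**Figure D2:**
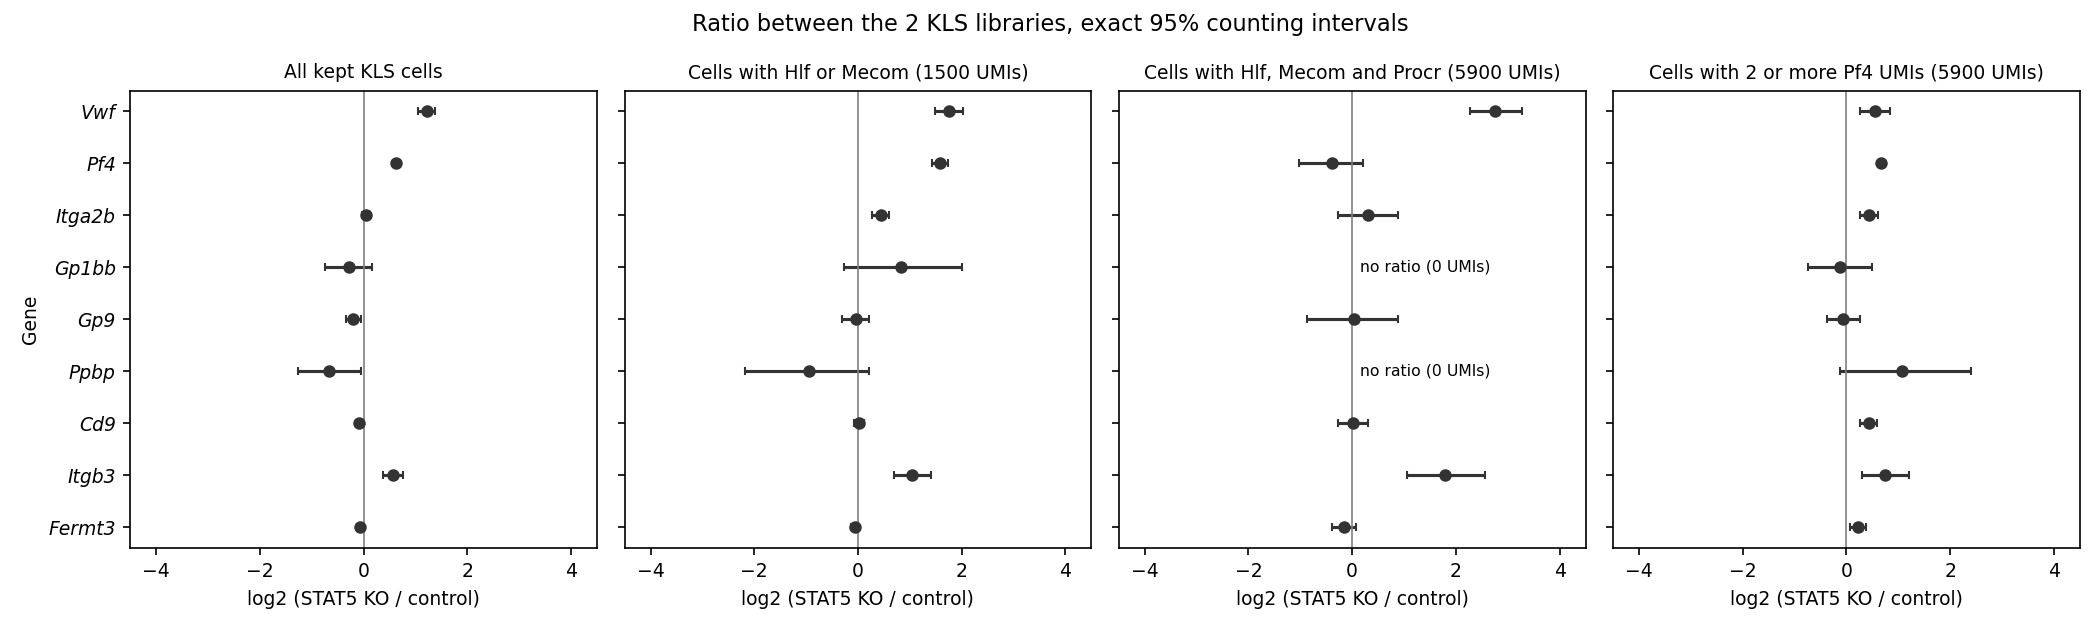
Log2 ratio of STAT5 KO over control for each of the 9 genes in 4 sets of KLS cells, with exact 95% counting intervals; the vertical line marks no difference. Vwf moves from 1.21 in all cells to 2.76 in cells with Hlf, Mecom and Procr and is 0.55 in cells with 2 or more Pf4 UMIs, whereas Pf4 passes from 1.58 in cells with Hlf or Mecom to -0.39 in cells with all 3 markers.

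The ratios were then set against the number of the 3 markers detected. Vwf was 6.66 and 9.12 CPM in control and STAT5 KO cells with 0 markers, 5.05 and 16.8 CPM with 1, 10.9 and 24.9 CPM with 2, and 20.1 and 136.3 CPM with 3. The log2 ratios were 0.45, 1.73, 1.20 and 2.76, so the excess of the STAT5 KO library was largest in triad cells but did not grow at each step. Itgb3 gave log2 ratios of 0.24, 0.69, 0.87 and 1.79 in the same order. Pf4 gave -0.27, 1.36, 1.30 and -0.39, highest in cells with 1 or 2 markers. Itga2b gave -0.43, 0.24, 0.36 and 0.31.

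**Figure D3:**
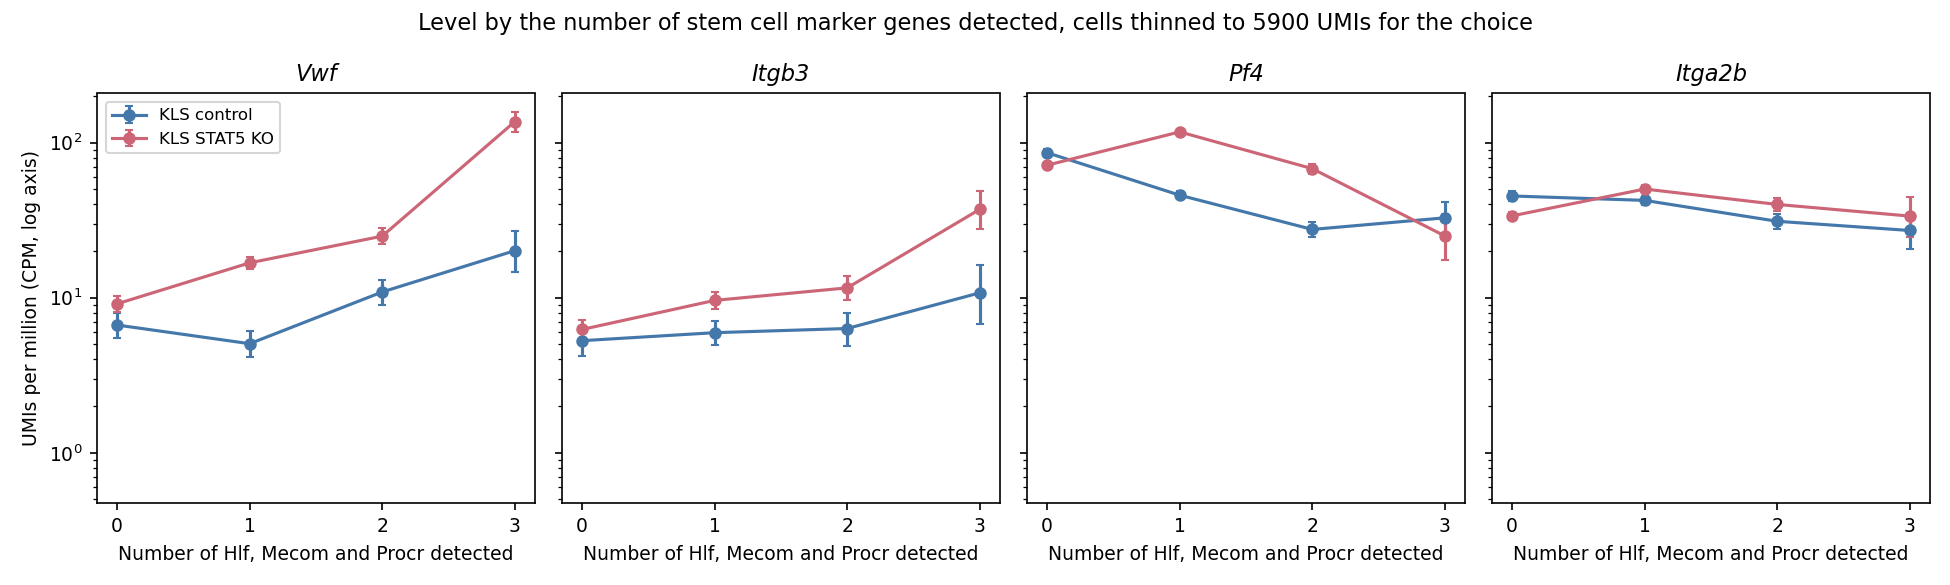
Level of Vwf, Itgb3, Pf4 and Itga2b (CPM, log axis) in KLS cells by the number of Hlf, Mecom and Procr detected at 5900 UMIs; points are 1 library each with exact Poisson 95% intervals. The Vwf lines part most at 3 markers (20.1 and 136.3 CPM), and the Pf4 lines cross between 0 and 1 and again between 2 and 3 markers.

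Cells with 2 or more Pf4 UMIs at 5900 UMIs, which also held more Itga2b, Gp1bb and Gp9 than KLS cells as a whole, were 85 of 2995 control cells (2.84%) and 192 of 5292 STAT5 KO cells (3.63%). Vwf was 91.0 CPM in these control cells and 133.0 CPM in these STAT5 KO cells, a fold of 1.46 (1.20 to 1.79). Itgb3 was 37.8 and 63.5 CPM, a fold of 1.68 (1.24 to 2.30), Itga2b 262 and 352 CPM, a fold of 1.34, and Cd9 289 and 391 CPM, a fold of 1.35. Gp9 was 85.9 and 82.6 CPM and Gp1bb 25.6 and 23.4 CPM, both with intervals that included no difference. Ppbp was 5.13 CPM (8 UMIs) and 10.7 CPM (27 UMIs), a log2 ratio of 1.06 (-0.11 to 2.41). Its lower value over all KLS cells was thus not seen here. Pf4 itself, which chose these cells, was 1403 and 2237 CPM. Of 7 members with at least 100 UMIs, 2 were at least 1.5-fold higher, where 3.72% of genes were, and 0 were lower, where 1.88% were. The 2 were Pf4 and Itgb3, which passed the 100 UMIs only with the STAT5 KO cells (59 and 160 UMIs). At 1500 UMIs only 26 and 101 cells qualified, and Vwf was 183.1 and 184.1 CPM.

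Triad cells and Pf4 cells held different portions of each gene's UMIs. Triad cells held 43 of 378 control Vwf UMIs (11.4%) and 191 of 1198 STAT5 KO Vwf UMIs (15.9%), although they were a smaller share of the STAT5 KO cells. Pf4 cells outside the triad held 37.0% and 27.7%, and all other cells 51.6% and 56.3%. Of the Pf4 UMIs, triad cells held 2.53% in control and 0.572% in STAT5 KO. Of the Itgb3 UMIs they held 7.54% and 8.27%.

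Removing the triad cells with a Pf4 UMI after thinning left 156 control and 130 STAT5 KO cells. Vwf was 22.2 and 139.9 CPM in them, a fold of 6.29 (4.45 to 9.10), and Itgb3 11.7 and 37.5 CPM, a fold of 3.21 (1.89 to 5.63). The Vwf difference was thus close in size without the Pf4-positive cells, 6.29-fold beside 6.79-fold.

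Detection together with Vwf was compared within each library at 5900 UMIs. Hlf or Mecom was found in 80.4% of 97 control cells with a Vwf UMI and in 69.3% of those without one, and in 78.2% of 298 and 57.5% of 4994 STAT5 KO cells. All 3 stem markers were found in 20.6% of Vwf-positive and 5.59% of Vwf-negative control cells, and in 17.4% and 1.72% of STAT5 KO cells. Itgb3 accompanied Vwf in 17.5% of Vwf-positive and 2.97% of Vwf-negative control cells, and in 33.6% and 2.98% of STAT5 KO cells. Pf4 did so in 23.7% and 8.21% of control cells, and in 32.6% and 5.61% of STAT5 KO cells. Cd9 was present in 72.2% and 64.4% of Vwf-positive cells of control and STAT5 KO, against 30.8% and 29.4% of the rest. Hlf or Mecom was found in 76.7% of control and 69.1% of STAT5 KO cells with an Itgb3 UMI, and in 75.5% and 65.0% of cells with a Pf4 UMI. Over all cells of this depth it was found in 69.7% and 58.6%. At 1500 UMIs it was found in 35.5% of control cells with a Pf4 UMI and 36.6% without, and in 33.1% and 28.6% in STAT5 KO. For Vwf the shares there were 47.4% (31.0 to 64.2%) and 36.4% (34.7 to 38.1%) in control, with overlapping intervals, and 48.7% and 28.3% in STAT5 KO.

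**Figure D4:**
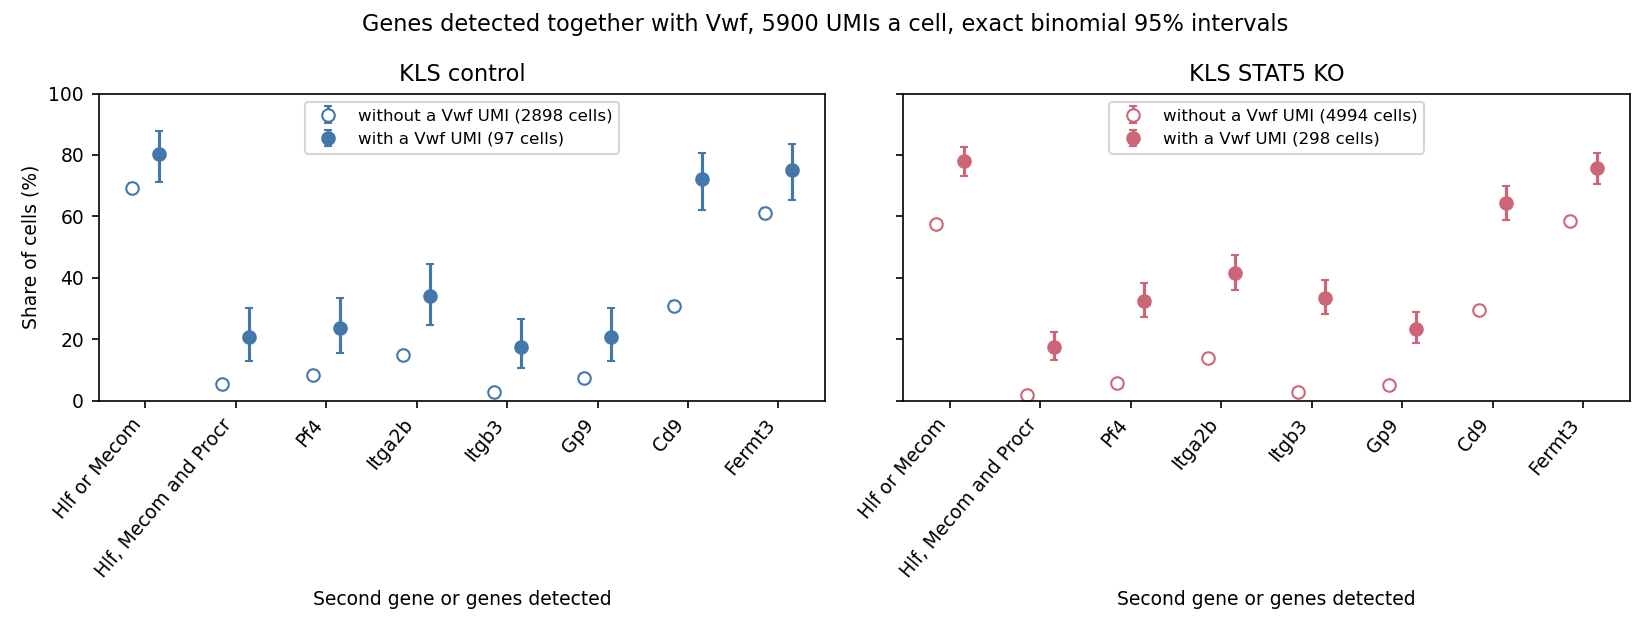
Share of KLS cells (percent) in which stem cell markers or other members were detected, in cells with (filled) and without (open) a Vwf UMI at 5900 UMIs a cell, with exact binomial 95% intervals. In both libraries Itgb3 and Cd9 are more frequent in the Vwf-positive cells, and Itgb3 reaches 33.6% in STAT5 KO against 17.5% in control.

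Some transcripts were higher in triad cells with Vwf than in those without it, in both libraries. The genes named were chosen after their values were seen. Mllt3, a gene of stem cell maintenance, was 354 CPM in the 20 Vwf-positive and 109 CPM in the 162 Vwf-negative control triad cells, and 352 and 56.2 CPM in the 52 and 86 STAT5 KO cells. Clu, which encodes the secreted chaperone clusterin, was 82.1 and 5.04 CPM in control and 185.9 and 9.54 CPM in STAT5 KO. Slamf1, which encodes the stem cell surface receptor CD150, was 82.1 and 12.1 CPM in control and 118 and 11.7 CPM in STAT5 KO. Itgb3 was 44.2 and 8.07 CPM in control and 78.7 and 17.0 CPM in STAT5 KO. Pf4 was 12.6 and 34.3 CPM in control and 13.1 and 30.7 CPM in STAT5 KO, on 2 and 6 UMIs in the Vwf-positive cells. The Pf4 intervals of Vwf-positive and Vwf-negative cells overlapped in both libraries, so no direction is read for it.

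Among 9613 genes with at least 100 UMIs in the stem-marker cells of each library, the 10 most like Vwf were Cavin2, Sult1a1, Art4, Mllt3, Mycn, Tgm2, Selenom, Bex4, Trim47 and Cpxm1. Likeness was the lower of the log2 ratios, with 10 CPM added, of Vwf-positive over Vwf-negative cells in control (18 and 1118 cells) and STAT5 KO (73 and 1866 cells). It was 2.40 for Cavin2, which encodes a caveola protein of platelets and endothelium, and 1.83 for Cpxm1, on between 2 and 11 UMIs in the control Vwf-positive cells. At 5900 UMIs (78 and 233 Vwf-positive cells) Cavin2 was again in place 1, at 2.54, followed by Pf4, at 2.45. Of the 10 genes named, 3 (Cavin2, Sult1a1 and Bex4) were among the first 10 at this depth and 7 were not. Itgb3 was in place 15 of 10482, Itga2b in place 66, Cd9 in place 83, Gp9 in place 197 and Fermt3 in place 322. At 1500 UMIs, where Itgb3 had too few UMIs to be ranked, Pf4 was in place 49, Cd9 in place 82 and Itga2b, with 0 UMIs in the control Vwf-positive cells, in place 8686 of 9613. All these cells share a library and a depth, and the ranking is a description.

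Some STAT5 KO cells had a Stat5a or Stat5b UMI, and these held a large portion of the Vwf UMIs. At 5900 UMIs, 264 of 5292 STAT5 KO cells (4.99%) had such a UMI, and they held 489 of 1198 Vwf UMIs (40.8%) but 4.60% of all UMIs. Vwf was 152 CPM (139 to 167) in them and 10.7 CPM (9.88 to 11.5) in STAT5 KO cells without one. In control the corresponding values were 8.30 CPM in 1527 cells and 6.57 CPM in 1468 cells. Itgb3 was 42.7 and 7.39 CPM in the STAT5 KO cells and 7.02 and 4.98 CPM in control. Triad cells were 12.1% of the STAT5 KO cells with a Stat5 UMI and 2.11% of those without, and Pf4 cells were 9.47% and 3.32%. Of the 264 cells, 2 shared a barcode with another library.

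The Vwf excess was also present, and smaller, in STAT5 KO cells without a Stat5 UMI. Against all control cells they gave a fold of 1.43 (1.26 to 1.62) over all cells, 1.85 (1.59 to 2.15) over stem-marker cells and 4.43 (3.07 to 6.48) over triad cells. The first is under the 1.5-fold line with 1 CPM added, so the Vwf call over all KLS cells was lost, and those in stem-marker and triad cells were not. For Itgb3 the fold was 1.37 over stem-marker cells, where the call was lost, and 3.11 over triad cells. In triad cells Vwf was 88.9 CPM in 106 cells without a Stat5 UMI and 340 CPM in 32 cells with one, beside 20.5 and 19.8 CPM in control. Itgb3 was 33.5 and 52.8 CPM in the STAT5 KO cells, beside 8.18 and 12.9 CPM in control. Within STAT5 KO triad cells, Stat5a was 63.4 CPM in Vwf-positive and 11.7 CPM in Vwf-negative cells, beside 82.1 and 73.2 CPM in control. A cell without a Stat5 UMI is not shown to lack the gene, since 1468 of 2995 control cells had none, and whether a Stat5 UMI in the STAT5 KO library comes from an intact allele was not tested. The positions of the floxed exons are not given in the sources used here.

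**Figure D5:**
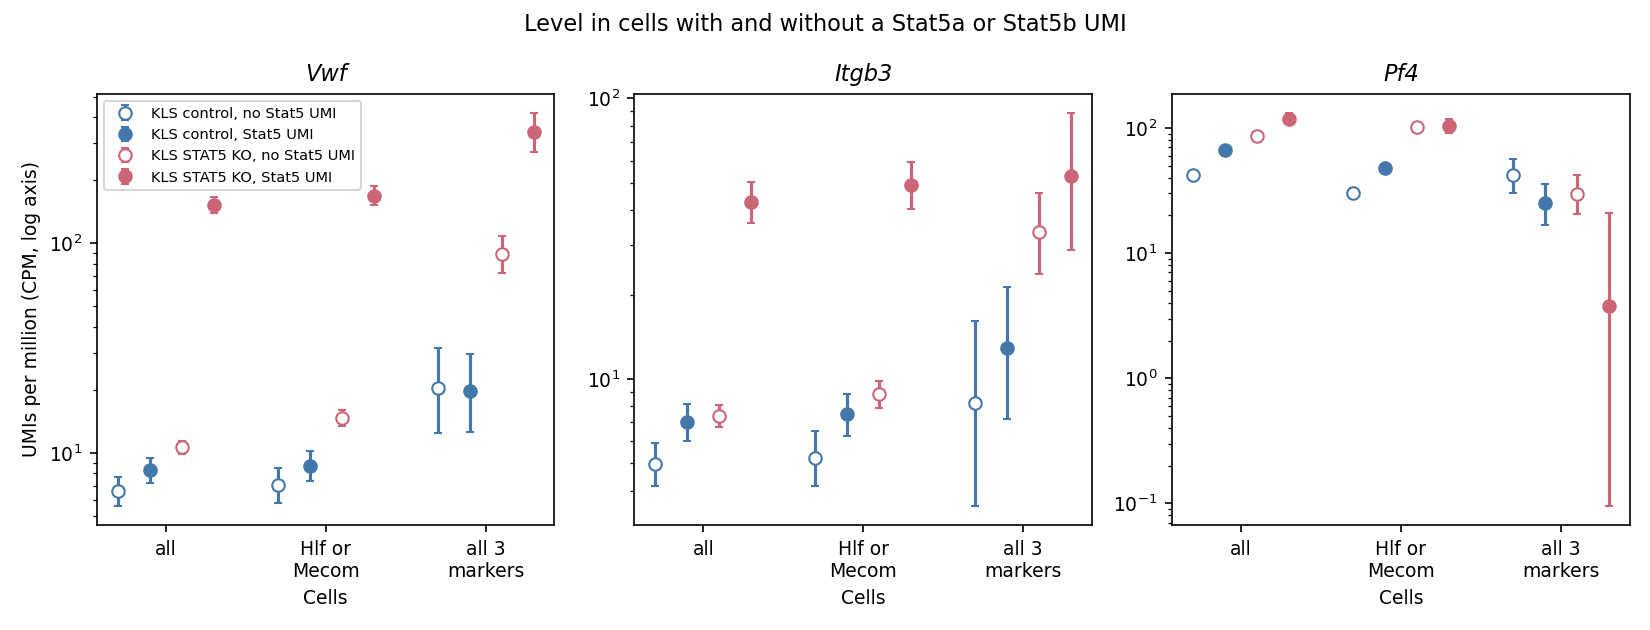
Level of Vwf, Itgb3 and Pf4 (CPM, log axis) in cells with (filled) and without (open) a Stat5a or Stat5b UMI at 5900 UMIs, in all cells, cells with Hlf or Mecom and cells with all 3 markers; points are 1 library each with exact Poisson 95% intervals. Vwf in STAT5 KO cells stands at 152 CPM with a Stat5 UMI and 10.7 CPM without, while the control values are 8.30 and 6.57 CPM.

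Other platelet genes differed in direction from one another. Of 21 further platelet receptor and signaling genes, 15 had at least 100 UMIs in stem-marker cells. Of these, 0 were at least 1.5-fold higher in STAT5 KO, near the 1.47% of all genes that were. P2rx1, an ATP-gated channel gene, gave a log2 ratio of -0.57. Gp5, another glycoprotein Ib-IX-V chain gene, was 5.67 and 7.64 CPM, and the adapter genes Lat and Fyb were 39.0 and 30.2 CPM and 57.6 and 69.3 CPM. The list's median log2 ratio was -0.07, beside 0.01 over all genes. Of 14 transcription factor genes of megakaryocytes, all 14 were counted, with a median of 0.06. Among them 0 passed 1.5-fold either way, near the shares of all genes, 1.47% higher and 2.64% lower. Gata1 was 6.16 and 8.66 CPM, Zfpm1, which encodes its partner, 82.9 and 97.3 CPM, and Nfe2, a factor needed for platelet release, 150 and 112 CPM. Gfi1b was 31.0 and 25.1 CPM and Mef2c 402 and 458 CPM.

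Among 17 granule and cytoskeleton genes, 12 were counted in stem-marker cells, 4 were higher and 1 was lower, with a median log2 ratio of 0.13, where 1.47% of all genes were higher and 2.64% lower. Clu was 3.44 CPM in control against 13.5 CPM in STAT5 KO, Timp3, a protease inhibitor gene, 2.60 and 6.61 CPM, Cavin2 8.51 and 20.7 CPM, and Selp, which encodes the granule membrane protein P-selectin, 14.1 and 32.8 CPM. Mmrn1, which encodes a granule binding protein of factor V, was the lower one, at 47.8 and 29.6 CPM. In triad cells Selp was 15.4 and 72.8 CPM, Clu 10.7 and 67.1 CPM and Cavin2 16.4 and 50.7 CPM. Gp6 and Tubb1, genes of mature megakaryocytes, had 0 UMIs in the stem-marker cells of both libraries.

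Among the 5 lists of platelet, megakaryocyte and stem cell genes, that of genes linked to platelet-biased or aged stem cells had the highest median log2 ratio. Of 20 in the list, which shares Selp, Clu and Slamf1 with other lists used here, 16 were counted in stem-marker cells, 10 were at least 1.5-fold higher (1.47% of all genes) and 0 were lower (2.64% of all genes), with a median log2 ratio of 0.88. Mt1 and Mt2, which encode metal-binding metallothioneins, were 7.48 and 44.8 CPM and 0.483 and 12.6 CPM, and Nupr1, a stress response gene, was 6.10 and 17.4 CPM. In triad cells 6 of 9 counted genes were higher, where 2.37% of all genes were, with a median of 1.57, among them Mt1 at 7.48 and 161 CPM, Nupr1 at 12.1 and 81.4 CPM and Slamf1 at 17.3 and 46.4 CPM. Of 20 stem cell genes, all counted in stem-marker cells, 0 were higher and 5 were lower, with a median of -0.43. These were Ltb (114.8 and 50.8 CPM), Cdkn1c (19.3 and 10.3 CPM), Robo4 (12.1 and 6.51 CPM), Gimap6 (195 and 113.9 CPM) and Pdzk1ip1 (68.2 and 41.5 CPM). In triad cells this list had no such shift, with a median of -0.06. Of 14 counted there, 2 were higher (Slamf1 and Mycn) and 2 lower (Ltb and Ly6a), where 2.37% and 3.38% of all genes were. These lists were chosen with Vwf already known to differ, so they are no independent evidence of a direction.

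Markers of other cell types were read beside these values. Endothelial cells also make Vwf. Of 14 endothelial marker genes, summed at 306 CPM in control against 282 CPM in STAT5 KO triad cells, Sox17, Mmrn2 and Ptprb had 0 UMIs in both, Cdh5 had 1 and 2 UMIs, and Sox18 had 10 and 23 UMIs. In these cells 4 of the 14 had at least 100 UMIs, 0 of them higher and 1 lower, Emcn, at 47.7 and 17.8 CPM. Of all genes there, 2.37% were higher and 3.38% lower. In stem-marker cells the sums were 237 and 192 CPM. The lower sum in triad cells came from Emcn: without it the other 13 summed to 259 and 264 CPM, and Sox18 was 4.67 and 16.4 CPM, a log2 ratio of 1.81 (0.69 to 3.05). The part of endothelial transcripts in the Vwf values was not tested. Myeloid markers were higher in STAT5 KO. In stem-marker cells 4 of the 5 counted of 8 were past 1.5-fold (1.47% of all genes), with sums of 801 and 1324 CPM. In triad cells 2 of 3 were (2.37% of all genes), with sums of 512 and 1004 CPM. The myeloid genes Elane in stem-marker cells (39 and 129 UMIs) and Ctsg in triad cells (23 and 86 UMIs) passed the 100 UMIs only with the STAT5 KO cells. The median log2 ratios of myeloid markers were 1.02 and 1.63, above the 0.88 and 1.57 of genes linked to platelet-biased or aged stem cells. The part of myeloid transcripts in the result was not tested. Erythroid markers summed to 758 and 481 CPM in stem-marker cells, of which Car2 was 701 and 408 CPM, and the other 9 summed to 57.0 and 72.6 CPM. There lymphoid-primed markers summed to 701 and 688 CPM, mast and basophil markers to 65.5 and 62.2 CPM and stromal markers to 1.99 and 2.72 CPM.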

How the data were processed

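Single-cell 3′ libraries (10x Chromium, version 3 chemistry, per the labels' protocols) were measured for 4 groups. The authors deposited raw UMI counts per gene and cell barcode. The submitters' processing notes name Cell Ranger and the builds GRCm38 and mm10, and 3.1.0 is the version in the matrices, per the file headers. The strand rule of the counting is not given in the sources used here. Of 31053 gene identifiers, 31011 were found in GENCODE M21.

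Kept cells had 200 or more genes and no more than 10% of UMIs from mitochondrial genes, and the highest Scrublet scores (scanpy 1.11.5) were left out at 0.8% per 1000 barcodes. Free RNA was not corrected. Counts were summed over cells and scaled to CPM. With 1 library a group there was no test: sums carry exact Poisson, shares exact Clopper-Pearson and ratios exact conditional binomial 95% intervals. A count of 0 is read against a limit of 3 UMIs. Membership of cell sets and shares were read after thinning each cell to 1500 UMIs, the lower library's 10th percentile, or 5900 UMIs, its 25th percentile. Shallower cells were left out, leaving 3110 of 3454 control and 6739 of 6987 STAT5 KO cells at 1500 UMIs and 2995 and 5292 at 5900. CPM sums used all UMIs of the chosen cells. A gene counted as higher or lower past 1.5-fold with 1 CPM added, over genes with at least 100 UMIs summed over both libraries. A gene scarce in 1 library can thus pass through the library where it is high. The code for ratios and their intervals was tested on simulated counts. Thinning was checked on the KLS control cells, by the number with a Fermt3 UMI against the number expected.

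The members and gene lists were chosen with earlier results of these data known. Genes named from a list are the 5 with the largest ratio in stem-marker cells, plus up to 10 genes most like Vwf. A gene that met this rule is not reported here. Values in triad cells, transcripts compared by Vwf within them, the split by Stat5 UMIs and genes named with 0 UMIs were chosen after values were seen. Alternatives covered cell filters, doublets, shared barcodes, scaling (TMM factors of edgeR 4.0.16 and median-of-ratios factors of DESeq2 1.42.0), summing, cell mix, the stem-marker rule and thinning.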

Additional observations from a re-analysis of the deposited data

How the results depend on the processing

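No paired analysis was possible because each group has 1 library and the labels give no replicate numbers. Directions of Vwf and Itgb3 held under every alternative run; with 1 library a group, none of this speaks to differences between mice. The Vwf log2 ratio in KLS cells (1.21) came to 0.62 without STAT5 KO cells that had a Stat5a or Stat5b UMI. Such UMIs were read after thinning to the 25th percentile of depth, so shallower cells stayed in unscreened. Among cells of at least that depth, the ratio without the cells with a Stat5 UMI was 0.52 (0.33 to 0.70). In stem-marker cells (1.75) the Vwf log2 ratio was 2.07 under a stricter cell filter (1000 or more genes, no more than 5% of UMIs mitochondrial). It was 1.43 as the mean over single cells, 2.18 when Hlf, Mecom and Procr were all required and 1.41 when cells were chosen on unthinned counts. Without the cells with a Stat5 UMI it was 1.04, again with shallower cells unscreened. Among stem-marker cells of at least the 25th percentile of depth that value was 0.89 (0.67 to 1.11). The difference in Vwf share in stem-marker cells (2.18 percentage points) was 3.77 points at the 25th percentile of depth. It was 15.6 points when all 3 markers were required, on the same 18 control and 15 STAT5 KO cells. In triad cells (2.76) Vwf was 3.35 under the stricter filter, 2.18 at the 10th percentile (again 18 and 15 cells) and 2.15 without the cells with a Stat5 UMI. Itgb3 in triad cells ranged from 1.60 to 1.83 over 11 alternatives.

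The median log2 ratio of the 9 genes in KLS cells (-0.07) was -0.0032 under the stricter filter, -0.0106 without barcodes larger elsewhere, -0.0117 without every shared barcode, 0.048 as the mean over single cells and 0.0084 with STAT5 KO weighted to the control mix of stem-marker numbers, so it has no stable sign. In stem-marker cells it lay between 0.01 and 0.47. Of 250 values for single members, 218 stayed within the counting interval of the reported value and 21 had the other sign, in 11 of 21 pairs of gene and cell set and most often for Cd9 in triad cells (6). Where the reported interval did not include 0, 3 turned: Fermt3 in KLS cells (0.049 as the mean over single cells), Cd9 in KLS cells (0.0085 under the weighted mix) and Pf4 in stem-marker cells (-0.40 when all 3 markers were required). The causes were not tested. Gp1bb and Ppbp gave no ratio where a library had 0 UMIs. Depth limits Gp1bb and Ppbp, with at most 96 UMIs a library.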
